A study of Mus musculus with 10 samples.

Results

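A set of 6 genes that encode adhesion molecules by which endothelium captures leukocytes was followed in whole mouse retina: the selectins Sele and Selp, the immunoglobulin superfamily ligands Icam1, Icam2 and Vcam1, and the junctional molecule Pecam1. They were chosen by symbol, as 6 of the 30063 genes that had a transcript cluster annotated to 1 symbol, and each had exactly 1 such cluster. A transcript cluster is the set of probes on the array that reads out 1 gene. The arrays were Affymetrix whole-transcript arrays of total RNA, 10 in number, and the deposited values are log2 levels. Of the 6 genes, 4 (Icam1, Icam2, Vcam1 and Pecam1) passed the filter on low signal and were tested, and Sele and Selp did not.

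All retinas were from C57BL/6JJmsSlc mice, and each of the 5 groups had 2 arrays. Untreated retina was taken at postnatal day 7 and at postnatal day 17. The other 3 groups had oxygen-induced retinopathy (OIR), in which pups were kept in 75% oxygen from day 7 for 5 days and then returned to air, and retinas were of day 17. One OIR group was uninjected, one received phosphate-buffered saline (PBS) and one the inhibitor ISOX DUAL, into the vitreous directly after hyperoxia. The labels give no dose, and no injected group was free of OIR. Whether the 2 arrays of a group stand for different animals or for pooled tissue is not stated in them. The p-values therefore reflect only array-to-array spread, possibly technical. OIR is a model of ischaemic retinopathy: hyperoxia prunes the growing retinal capillaries, and the return to air leaves poorly perfused retina from which new vessels sprout.

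Leukocytes leave the blood in steps. P-selectin (Selp), which is stored in endothelial granules and released to the surface, and E-selectin (Sele), which is made on demand after cytokine exposure, bind glycosylated ligands and let the cells roll. ICAM-1, ICAM-2 and VCAM-1 then hold the cells by binding leukocyte integrins, ICAM-1 and ICAM-2 the beta-2 integrins and VCAM-1 the alpha-4 integrins, and PECAM-1 at endothelial junctions takes part in the passage between cells. ICAM-2 and PECAM-1 are made by resting endothelium, whereas Icam1, Vcam1 and Sele are textbook targets of tumour necrosis factor and interleukin-1 acting through NF-kB. In the retina ICAM-1 is known for its part in leukocyte arrest in diabetic and ischaemic vessels. Vcam1 and Icam1 can also be made by other cells, glia among them, so a whole-retina level is not endothelial alone.

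Promoters of 3 of the 6 genes were used, and the 150 bases directly before the transcript start are shown because the table used holds these members and no others. Capitals mark every match to a searched motif. The sequences are from RefSeq, GRCm38.p6, plus strand, at chr9:21015790-21015939 for Icam1, chr1:164048084-164048233 for Sele and chr1:164115114-164115263 for Selp.
Icam1: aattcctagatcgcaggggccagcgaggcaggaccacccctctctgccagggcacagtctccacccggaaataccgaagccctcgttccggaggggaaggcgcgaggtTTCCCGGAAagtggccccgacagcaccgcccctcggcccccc
Sele: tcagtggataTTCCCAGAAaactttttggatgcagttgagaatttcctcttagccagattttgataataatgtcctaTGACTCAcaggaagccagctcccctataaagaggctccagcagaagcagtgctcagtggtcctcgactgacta
Selp: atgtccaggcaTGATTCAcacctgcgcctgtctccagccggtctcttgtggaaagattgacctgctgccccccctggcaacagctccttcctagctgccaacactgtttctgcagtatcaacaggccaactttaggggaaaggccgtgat

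Both strands of the 250 bases before each start were searched for the STAT motif TTCNNNGAA, the AP-1 motif TGANTCA, the hypoxia response core ACGTG, the NF-kB consensus and a narrower form of that consensus. The Icam1 promoter held 1 STAT match, TTCCCGGAA, at 42 to 34 bases before the start. The Sele promoter held the STAT match TTCCCAGAA at 140 to 132 bases and the AP-1 match TGACTCA at 73 to 67 bases before the start. The Selp promoter held 1 AP-1 match, TGATTCA, at 139 to 133 bases before the start. Over all 32851 promoters of this length, 7.02% held the STAT motif, 6.75% the AP-1 motif, 16.6% the hypoxia core, 7.25% the NF-kB consensus and 4.65% its narrow form. Neither NF-kB form nor the hypoxia core matched in the 3 windows, which says only that these letters are not there.

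Signal was low for all 6 genes. The reference for background was the median of 5222 negative control probes on the same array, which lay between 5.83 and 6.11 log2, and the 95th percentile of those probes was exceeded by 8.00% to 9.97% of transcript clusters, depending on the array. Icam1, Vcam1 and Pecam1 were above their array's negative control median on 10 of 10 arrays. Icam2, Sele and Selp were below it on 10 of 10 arrays, so no fold is given for them, and none of the 6 genes reached the 95th percentile on any array. Differences were tested with limma over all 10 arrays, with p-values adjusted by Benjamini-Hochberg over the 23255 genes tested and a threshold of 0.05. Values after ± are the standard error (SE) of a difference or, where stated, the standard deviation (SD) of 2 arrays, and intervals are 95% intervals of the log2 difference.

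**Figure D1:**
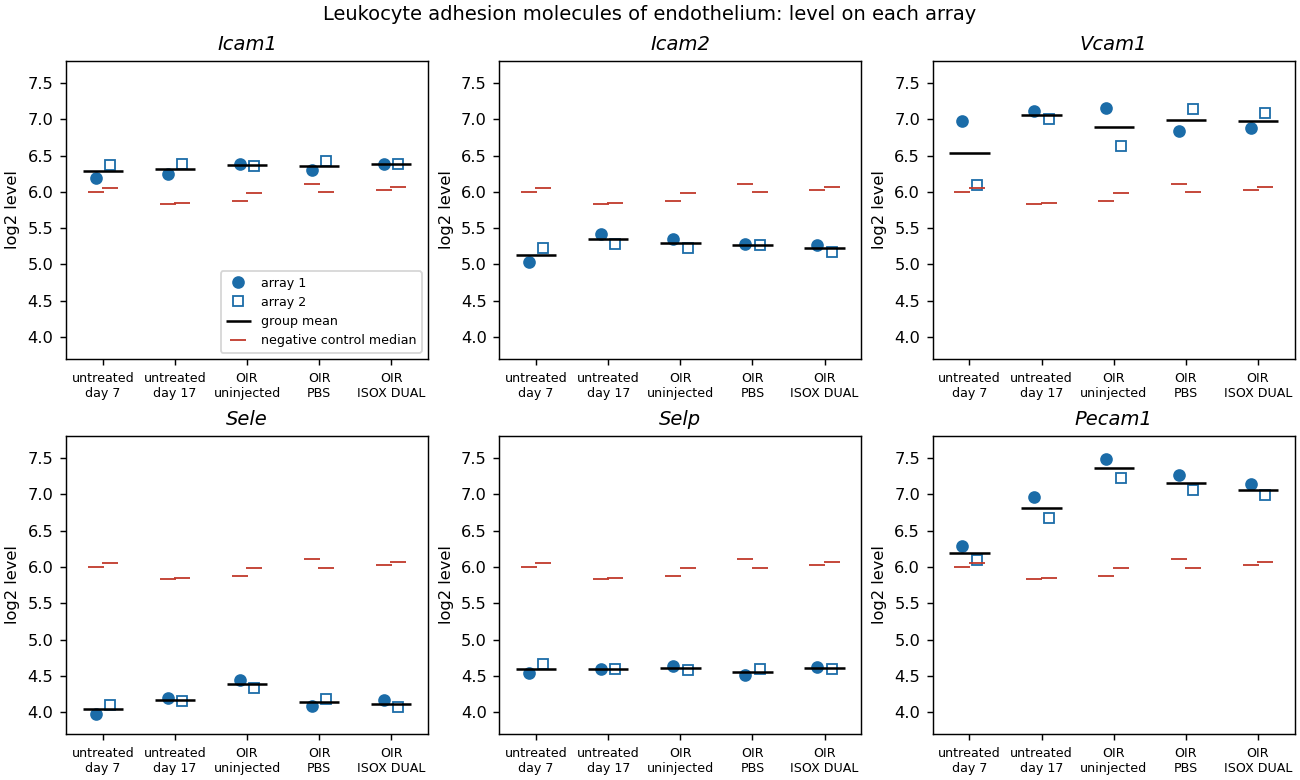
Log2 level of each of the 6 genes (vertical axis) on the 2 arrays of each of the 5 groups (circle, array 1; open square, array 2), with the group mean as a black line and each array's negative control median as a red dash. Pecam1 is lowest on both day 7 arrays and higher on all 6 OIR arrays than on either untreated day 17 array, Icam1 and Selp stay within 0.23 and 0.15 log2 over all 10 arrays, and Icam2, Sele and Selp lie under the red dashes throughout.

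The selectins, which start leukocyte rolling, gave the lowest readings relative to background. Selp was at 4.54 and 4.66 log2 in untreated day 7 retina, 4.59 and 4.60 in untreated day 17 retina, 4.64 and 4.58 in uninjected OIR, 4.51 and 4.59 with PBS and 4.63 and 4.60 with ISOX DUAL. Its whole range was 0.15 log2, and uninjected OIR overlapped untreated retina of both days. A fit without the filter on low signal gave 0.01 ± 0.09 log2 for uninjected OIR against untreated day 17 retina (interval -0.18 to 0.21).

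Sele was at 3.98 and 4.10 log2 in untreated day 7 retina, 4.19 and 4.15 in untreated day 17 retina, 4.44 and 4.33 in uninjected OIR, 4.09 and 4.18 with PBS and 4.17 and 4.06 with ISOX DUAL. Both uninjected OIR arrays lay above the highest of the other 8 arrays (4.33 against 4.19). Set against the negative control median of the same array, these levels stood at -2.03 to -1.44 log2. In the same fit Sele differed by 0.21 ± 0.09 log2 between uninjected OIR and untreated day 17 retina (interval -0.01 to 0.43). It differed by -0.25 (interval -0.47 to -0.03) between PBS and uninjected OIR and by -0.27 (interval -0.49 to -0.05) between ISOX DUAL and uninjected OIR. Sele was not among the genes tested, so these differences carry no call, and at readings this far under background they are not sizes of a transcript change.

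Icam1, the beta-2 integrin ligand that cytokines induce, hardly moved. It was at 6.19 and 6.37 log2 in untreated day 7 retina, 6.25 and 6.39 in untreated day 17 retina, 6.38 and 6.36 in uninjected OIR, 6.29 and 6.42 with PBS and 6.38 and 6.39 with ISOX DUAL. The range over all 10 arrays was 0.23 log2, narrower than that of all but 6.74% of the tested genes. Uninjected OIR was 1.04-fold of untreated day 17 retina (0.05 ± 0.10 log2, limma adjusted p = 0.999), and the interval ran from 0.879-fold to 1.22-fold. A change beyond that interval was therefore not seen in whole retina, at levels 0.18 to 0.55 log2 above the negative control median. So near background the interval bounds the array reading and not the size of a transcript change. In bulk tissue, fewer cells of a type and less RNA per cell cannot be told apart, so a change restricted to a small part of the vessels would not be resolved.

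Icam2, the constitutive endothelial ligand of the same integrins, was at 5.03 and 5.23 log2 in untreated day 7 retina, 5.41 and 5.28 in untreated day 17 retina, 5.36 and 5.23 in uninjected OIR, 5.29 and 5.26 with PBS and 5.27 and 5.17 with ISOX DUAL. Its levels stood at -0.96 to -0.42 log2 from the negative control median of the array. The first day 7 array was the lowest and the first untreated day 17 array the highest, and uninjected OIR overlapped untreated day 17 retina. The difference between uninjected OIR and untreated day 17 retina was -0.05 ± 0.11 log2 (interval -0.30 to 0.19, limma adjusted p = 0.999).

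Vcam1, the ligand of alpha-4 integrins, had the widest spread within 4 of the 5 groups, untreated day 17 retina being the exception. It was at 6.97 and 6.09 log2 in untreated day 7 retina (SD 0.62, n = 2), 7.12 and 7.01 in untreated day 17 retina, 7.15 and 6.63 in uninjected OIR (SD 0.37, n = 2), 6.83 and 7.14 with PBS and 6.87 and 7.09 with ISOX DUAL. The second array was the lower in the 3 uninjected groups (second minus first array -0.88, -0.11 and -0.53 log2) and the higher in both injected groups (0.31 and 0.21). All day 17 groups overlapped. Uninjected OIR was 0.887-fold of untreated day 17 retina (-0.17 ± 0.29 log2, limma adjusted p = 0.999), and the interval of 0.558-fold to 1.41-fold does not exclude a change of 1.41-fold upward.

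Pecam1, which encodes the junctional molecule of resting and growing endothelium alike, had the widest range of the 6 genes. It was at 6.29 and 6.10 log2 in untreated day 7 retina (mean 6.19, SD 0.14), 6.96 and 6.67 in untreated day 17 retina (6.81, SD 0.20), 7.48 and 7.23 in uninjected OIR (7.36, SD 0.18), 7.27 and 7.06 with PBS (7.16, SD 0.15) and 7.14 and 6.98 with ISOX DUAL (7.06, SD 0.11). Both day 7 arrays were the lowest of all, and all 6 OIR arrays were above both untreated day 17 arrays. The share of all genes with such an order over several groups was not counted, here or for other genes described in this way. The second array was the lower in every group, with second minus first array values of -0.15 to -0.29 log2. Its range over the 10 arrays, 1.38 log2, was wider than that of 92.7% of the tested genes.

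Between untreated day 7 and day 17, while the deeper vascular layers form, Pecam1 rose 1.54-fold (0.62 ± 0.15 log2, interval 0.28 to 0.96, limma adjusted p = 0.0370). Of the 4 tested adhesion genes it was the 1 to pass, in a comparison in which 10.6% of all genes tested passed. Vcam1 differed by 0.53 ± 0.29 log2 (1.44-fold, interval -0.14 to 1.20, adjusted p = 0.342; 0.97 without the first and 0.09 without the second day 7 array), Icam2 by 0.22 ± 0.11 (interval -0.03 to 0.46, adjusted p = 0.286) and Icam1 by 0.04 ± 0.10 (interval -0.20 to 0.27, adjusted p = 0.896). On the second day 7 array Pecam1 and Vcam1 were each 0.04 log2 above the negative control median. So near background their folds describe array readings and are not sizes of a transcript change. The arrays of both days did not overlap, with day 17 higher, for Pecam1, Vcam1 and Icam2. Over all genes tested 20.7% did not overlap in that direction and 19.7% in the other. The Pecam1 call is close to the threshold: it was kept in 8 of 19 alternative settings, and adjusted p ranged from 0.00470 to 0.197. It was lost without the first untreated day 17 array (0.48 log2), without either day 7 array (0.72 and 0.52 log2), and without any 1 of the 4 injected arrays, which enter only through the shared spread.

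In OIR none of the 4 tested adhesion genes passed in the fit without a block, and Pecam1 passed (adjusted p = 0.0491, the same 0.54 log2) in the fit with the replicate number as a block. Pecam1 had a value 1.46-fold that of untreated day 17 retina (0.54 ± 0.15 log2, interval 0.20 to 0.89, unadjusted p = 0.0067, limma adjusted p = 0.354), and its arrays did not overlap. Of all genes tested 0.495% passed in this comparison without the block, 9.44% had both OIR arrays above both untreated arrays, and 19% had both below. At an unadjusted p under 0.05, limma gave 1419 of 23255 genes. With all 3 OIR groups pooled, Pecam1 differed from untreated day 17 retina by 0.38 ± 0.12 log2 (interval 0.10 to 0.66, adjusted p = 0.353), where 0.086% of genes passed. Icam1 differed by 0.05, Icam2 by -0.08 and Vcam1 by -0.11 log2 in that comparison.

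**Figure D2:**
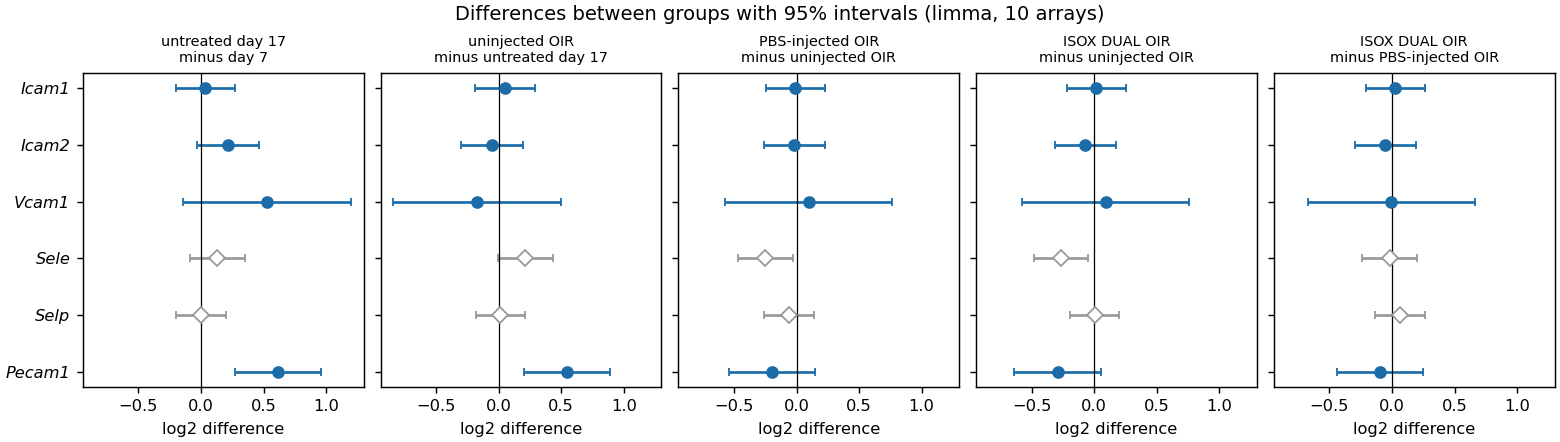
Log2 difference (horizontal axis) of each gene in 5 comparisons, with 95% intervals from limma over 10 arrays; blue circles are the 4 tested genes and grey open diamonds are Sele and Selp from the fit without the filter. The Pecam1 interval lies above 0 for day 17 against day 7 (0.28 to 0.96) and for uninjected OIR (0.20 to 0.89), and the Icam1 intervals stay within 0.29 log2 of 0.

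The injected groups were set against uninjected OIR and against each other, since the series sought genes that rise in OIR and return with ISOX DUAL. None of the 4 tested adhesion genes passed in any of these comparisons. Of all genes tested 0% passed for PBS against uninjected OIR (997 at an unadjusted p under 0.05), 0.0043% for ISOX DUAL against uninjected OIR and 0% for ISOX DUAL against PBS (237 at an unadjusted p under 0.05). Both injected groups together against uninjected OIR gave 0.0086%.

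Pecam1 was 0.874-fold of uninjected OIR with PBS (-0.19 ± 0.15 log2, interval -0.54 to 0.15, limma adjusted p = 0.966) and 0.816-fold with ISOX DUAL (-0.29 ± 0.15 log2, interval -0.64 to 0.05, adjusted p = 0.991). With PBS the arrays overlapped those of uninjected OIR, and with ISOX DUAL both lay below, as 15.4% of all genes tested did (15.3% with PBS). Single arrays moved these values: with PBS the difference was -0.07 when the first uninjected OIR array was left out and -0.32 when the second was, and -0.30 and -0.09 without the first and second PBS array. With ISOX DUAL it was -0.17 without the first uninjected OIR array. These 2 comparisons and the OIR comparison share the uninjected OIR arrays. ISOX DUAL against PBS differed by -0.10 log2 (0.934-fold, interval -0.44 to 0.24, adjusted p = 1). All 4 injected arrays were above both untreated day 17 arrays in Pecam1 level.

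The integrin ligands gave small differences between ISOX DUAL and PBS. Icam1 differed by 0.03 log2 (1.02-fold, interval 0.865-fold to 1.20-fold), Icam2 by -0.05 (interval -0.30 to 0.19) and Vcam1 by -0.01 (interval -0.67 to 0.66). Against uninjected OIR the ISOX DUAL values were 0.02 for Icam1, -0.07 for Icam2 and 0.09 for Vcam1, and the PBS values were -0.01, -0.02 and 0.10 in the same order. Over these 3 comparisons the Icam1 intervals lay between 0.843-fold and 1.20-fold, and those of Vcam1 between 0.626-fold and 1.70-fold. Lens genes differed between both ISOX DUAL arrays (mean of 14 lens genes 6.52 and 7.77 log2, against 5.87 to 6.40 on the other 8 arrays), and its part in these values was not tested.

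Pecam1 was next set beside other genes of the vessel wall, since it is a marker of endothelium as well as an adhesion molecule. Over the 10 arrays the 3 tested genes most like it by Pearson correlation were Rgs5 (r = 0.995), a pericyte regulator of G-protein signalling, Bhlhe40 (0.991), a transcription factor gene, and Adgrl4 (0.983), an adhesion receptor of endothelium. Rgs5 was at 8.64 and 8.38 log2 in untreated day 7 retina, 9.68 and 9.28 in untreated day 17 retina, 10.53 and 10.35 in uninjected OIR, 10.22 and 9.97 with PBS and 9.97 and 9.81 with ISOX DUAL. Its order of groups and of arrays within groups was that of Pecam1. These correlations carry no p, since they were picked as the highest of many and the 10 arrays share groups.

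Cdh5, which encodes the endothelial cadherin of the same junctions, correlated with Pecam1 at r = 0.926. It was at 6.97 and 6.68 log2 in untreated day 7 retina, 7.44 and 6.86 in untreated day 17 retina, 8.10 and 7.81 in uninjected OIR, 7.72 and 7.39 with PBS and 7.46 and 7.22 with ISOX DUAL. Uninjected OIR differed from untreated day 17 retina by 0.81 ± 0.22 log2 (limma adjusted p = 0.362), and both of its arrays were above every other array. Other endothelial genes had other patterns. Kdr, the main vascular endothelial growth factor receptor gene, which retinal neurons are also known to express, correlated negatively (r = -0.750). Its log2 difference between day 7 and day 17 was -0.71 ± 0.13, a fall past the threshold (adjusted p = 0.0139; lost without the first day 17 or the second day 7 array), and its OIR difference was 0.08 ± 0.13. The tight junction gene Cldn5 correlated at 0.538 and differed by 0.04 ± 0.17 in OIR.

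**Figure D3:**
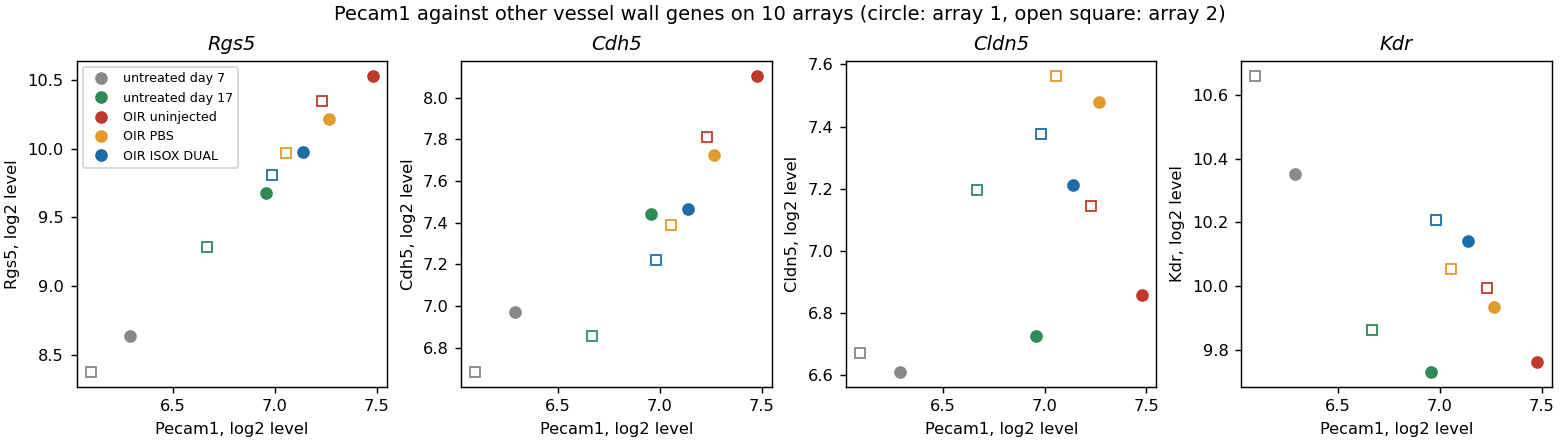
Level of Pecam1 (horizontal axis, log2) against Rgs5, Cdh5, Cldn5 and Kdr (vertical axes, log2) on the 10 arrays, coloured by group, with array 1 as a circle and array 2 as an open square. Rgs5 and Cdh5 climb with Pecam1 (r of 0.995 and 0.926), Cldn5 is scattered (0.538), and Kdr has a negative correlation (-0.750), with both day 7 arrays at its highest levels.

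Endothelial markers moved with Pecam1 in part. The mean of the 20 endothelial genes with a cluster was 6.38 and 6.33 log2 in untreated day 7 retina, 6.93 and 6.85 at day 17, 7.08 and 6.89 in uninjected OIR, 6.90 and 6.83 with PBS and 6.83 and 6.76 with ISOX DUAL. Between the days 18 of the 20 were positive (median 0.32 log2), against 52.0% of all genes tested (median 0.01), 6 rose and 1 fell. Flt1, a decoy receptor gene for vascular endothelial growth factor (1.52 ± 0.16), Ptprb, an endothelial phosphatase gene (1.46 ± 0.11), and the transporter gene Slco1a4 (2.67 ± 0.33) were among those that rose. In OIR 14 of 20 were positive (median 0.19 log2), against 40.0% of all genes tested (median -0.04), and none passed. Eng, encoding endoglin (0.84 ± 0.16), and Robo4, an endothelial guidance receptor gene (0.51 ± 0.10), had positive values, and the blood-retina barrier transporter genes Slco1a4 (-1.82 ± 0.33) and Mfsd2a (-0.63 ± 0.10) negative ones, at adjusted p of 0.0570 to 0.137. How far the Pecam1 values follow the amount of endothelium in the sample was not tested.

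Pericyte and smooth muscle genes gave like values: 11 of 12 were positive in OIR (median 0.25 log2, 0 past the threshold), against 40.0% of all genes tested. Rgs5 differed by 0.96 ± 0.17 (limma adjusted p = 0.0759) and Abcc9, a potassium channel subunit gene, by 0.63 ± 0.12. Between the days Rgs5 (0.97 ± 0.17), Abcc9 (1.03 ± 0.12) and Pdgfrb (0.73 ± 0.15), the platelet-derived growth factor receptor of pericytes, rose. With ISOX DUAL and with PBS 0 of the 12 were positive against uninjected OIR (medians -0.22 and -0.20 log2), where 57.4% and 52.5% of all genes tested were positive, and none passed.

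The leukocyte side of the cascade was read from 15 counter-receptor genes, 14 of which were tested. Itgal and Itgax, subunits of beta-2 integrins, were below the negative control median on all 10 arrays. Itgb2, their common beta chain, was above it on 1 array (5.68 to 5.92 log2 over the 10 arrays). Itgam, another alpha chain of these integrins, differed by 0.34 ± 0.11 log2 in OIR (limma adjusted p = 0.511). The OIR differences were 0.16 for Itgb2, 0.01 for Itgal, 0.01 for Itgax and -0.09 for the alpha chain gene Itgad. In OIR 2 of 14 rose and 9 were positive (median 0.09 log2), where 40.0% of all genes tested were positive and 0.495% passed. The 2 were Itgb1, a beta-1 integrin subunit made by most cells (0.78 ± 0.10, limma adjusted p = 0.0241), and Cd44, a hyaluronan receptor of glia as well as of leukocytes (1.00 ± 0.14, adjusted p = 0.0324). Itga4, the alpha-4 chain that pairs with Itgb1 to bind VCAM-1, had 0.73 ± 0.15 (adjusted p = 0.131). Podxl, a sialomucin of endothelium, had 0.50 ± 0.14 (adjusted p = 0.417).

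Cd44 was at 5.62 and 5.70 log2 in untreated day 7 retina, 6.58 and 6.27 in untreated day 17 retina, 7.59 and 7.27 in uninjected OIR, 6.58 and 6.52 with PBS and 6.84 and 6.92 with ISOX DUAL. Both uninjected OIR arrays were above every other array. Glial genes changed in the same comparison: Gfap, the intermediate filament gene of reactive glia, rose by 2.39 ± 0.18 log2 (limma adjusted p = 0.00526) and Sox9, a glial transcription factor gene, by 0.91 ± 0.11 (adjusted p = 0.0234). Both calls were lost without either untreated day 17 array, and that of Sox9 also without 1 uninjected OIR or PBS array. In OIR 40.0% of all genes tested were positive (median -0.04 log2) and 0.495% passed. Of 11 Müller glia genes 4 were positive (median -0.27 log2, 1 past the threshold), and of 5 astrocyte genes 2 (1 past). Their part in the Cd44 and Itgb1 values was not tested. Selectin ligand glycosylation genes gave 0 of 9 past the threshold in OIR (median 0.06 log2), with the sialyltransferase gene St3gal4 at 0.66 ± 0.14 (adjusted p = 0.145).

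Markers of blood leukocytes stayed under background. Of 14 neutrophil and monocyte genes with a cluster, 13 were below the negative control median on all 10 arrays and 0 were above it on all, and the list mean was 4.66 to 4.83 log2 over the 10 arrays. Of 12 lymphocyte genes 11 were below on all arrays, with a list mean of 4.80 to 5.02. Over all genes tested 40.0% were positive in OIR (median -0.04 log2) and 0.495% passed. Microglia and macrophage genes, the resident immune cells of the retina, had 12 of 15 positive in OIR (median 0.16 log2, 0 past the threshold). Their list mean was 6.20 and 5.94 in uninjected OIR and 5.84 and 5.83 in untreated day 17 retina. Retinal pigment epithelium genes, a layer outside the retina, had 0 of 11 positive in OIR (median -0.31 log2), with a list mean of 6.68 and 6.14 in uninjected OIR and 7.05 and 6.69 in untreated day 17 retina. The part of either in the adhesion gene values was not tested. Mrc1, a macrophage receptor gene, was the tested gene most like Sele over the 10 arrays (r = 0.940). It was at 5.97 and 5.39 log2 in uninjected OIR and 4.43 to 5.06 on the other 8 arrays, above its negative control median on 1 array.

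Transcripts of 5 cytokines that induce or sensitise endothelial adhesion were under background. Tnf was at 5.02 to 5.27 log2, Il1b at 4.47 to 4.62, Il1a at 4.20 to 4.47, Il6 at 2.50 to 2.70 and Ifng at 3.66 to 4.03 over the 10 arrays, all below the negative control median of the array. Of the 26 inducer and NF-kB genes listed, 20 were tested. In OIR, where 40.0% of all genes tested were positive and 0.495% passed, 15 were positive (median 0.16 log2) and 2 rose. The 2 encode receptors: Tnfrsf1a, the tumour necrosis factor receptor of most cells (0.79 ± 0.12, limma adjusted p = 0.0493), and Il1r1, the interleukin-1 receptor (0.84 ± 0.12, adjusted p = 0.0322). Il1r1 was at 5.59 and 5.61 log2 in untreated day 7 retina, 6.30 and 6.11 in untreated day 17 retina, 7.05 and 7.03 in uninjected OIR, 6.57 and 6.49 with PBS and 6.77 and 6.49 with ISOX DUAL. Tnfrsf1b had 0.33 ± 0.12 and the chemokine gene Ccl2 0.38 ± 0.13, neither past the threshold. Between the days Tnfaip3, a feedback inhibitor of NF-kB, rose by 3.17 ± 0.17 log2 (adjusted p = 9.95e-05), from 6.33 and 5.80 to 9.22 and 9.25. The NF-kB inhibitor gene Nfkbia fell (-0.56 ± 0.12 log2, adjusted p = 0.0257), and Il1r1 rose by 0.60 ± 0.12.

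**Figure D4:**
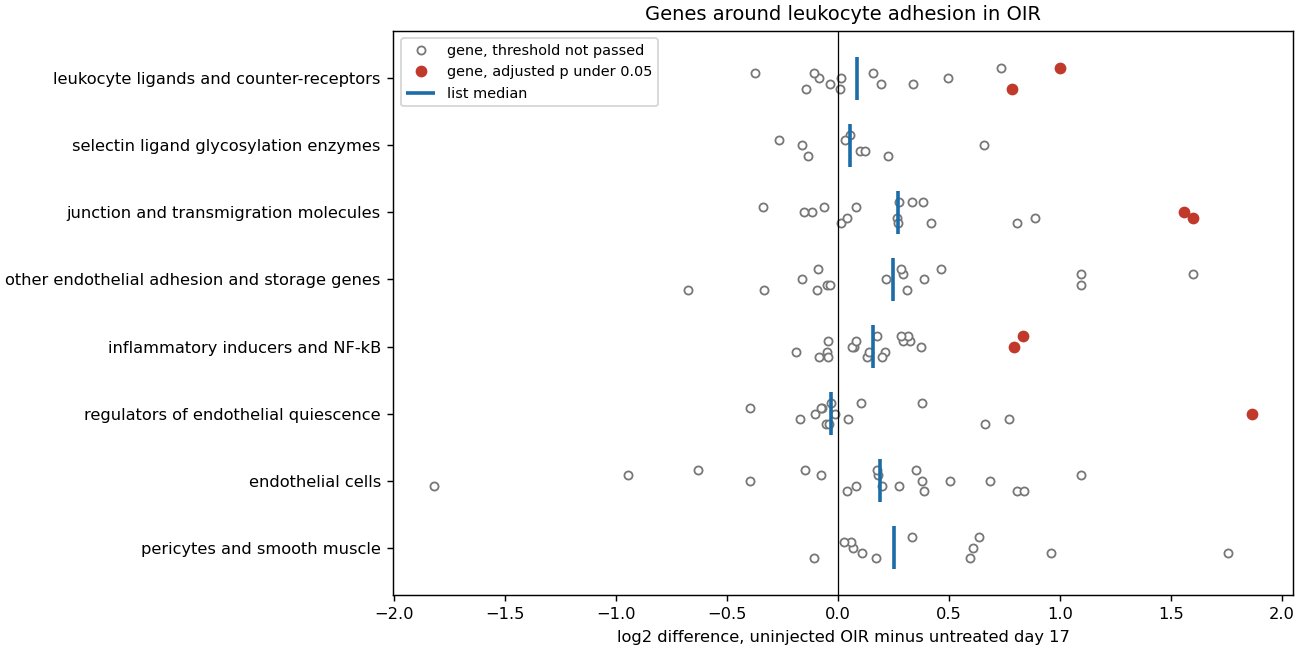
Log2 difference between uninjected OIR and untreated day 17 retina (horizontal axis) for each tested gene of 8 lists (rows), with filled red circles for genes past the limma threshold and a blue bar at each list's median. A total of 7 genes passed, and the junction list has the highest median, 0.27 log2.

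In OIR, where 40.0% of all genes tested were positive and 0.495% passed, 13 of 17 listed junction and transmigration genes were positive (median 0.27 log2). Of these genes 2 rose. Msn, moesin, which anchors ICAM and VCAM clusters to the actin cytoskeleton, rose by 1.60 ± 0.14 log2 (limma adjusted p = 0.00905). It was at 8.11 and 8.28 log2 in untreated day 7 retina, 7.63 and 7.62 in untreated day 17 retina, 9.31 and 9.13 in uninjected OIR, 8.60 and 8.21 with PBS and 8.57 and 8.44 with ISOX DUAL. All 6 OIR arrays were above both untreated day 17 arrays, and Msn also passed with the 3 OIR groups pooled (1.09 ± 0.12, limma adjusted p = 0.0273). That pooled call was lost with array weights and with only the groups compared. It was also lost without any 1 array except the second PBS array (leave-one-out values 1.02 to 1.15). Mcam, an adhesion molecule of endothelium and pericytes, rose by 1.56 ± 0.22 (adjusted p = 0.0322), a call lost with the replicate number as a block. The poliovirus receptor gene Pvr (0.89 ± 0.22) and ezrin, Ezr (0.42 ± 0.11), had positive values that did not pass. Between the days Cav1, encoding caveolin-1 (2.26 ± 0.19), Ocln, encoding the tight junction protein occludin (0.68 ± 0.10), and Esam (0.54 ± 0.13) rose, and Msn (-0.58 ± 0.14) and Mcam (-0.90 ± 0.22) fell.

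Other endothelial adhesion and storage genes had 9 of 16 positive in OIR (median 0.25 log2), against 40.0% of all genes tested, and none passed. Cd93, a receptor of sprouting endothelium, was at 6.78 and 6.20 log2 in untreated day 17 retina and 8.15 and 8.04 in uninjected OIR (1.60 ± 0.26, limma adjusted p = 0.0560). Cd34, a sialomucin that can carry selectin ligands, had 1.10 ± 0.18 (adjusted p = 0.0581). Vwf, the granule protein stored together with P-selectin, was at 6.00 and 6.17 log2 in untreated day 17 retina and 6.51 and 6.59 in uninjected OIR (0.47 ± 0.10, adjusted p = 0.162). Lyve1, a hyaluronan receptor of lymphatic endothelium and macrophages, had -0.68 ± 0.26 in OIR and rose by 2.10 ± 0.26 between the days.

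Regulators of endothelial quiescence had 6 of 15 positive in OIR (median -0.03 log2), near the 40.0% of all genes tested (median -0.04). Among them 1 rose, where 0.495% of all genes tested passed. Angpt2, the ligand that opposes angiopoietin-1 on TIE2 and sensitises endothelium to cytokines, was at 6.22 and 6.33 log2 in untreated day 17 retina, 8.22 and 8.07 in uninjected OIR, 6.88 and 6.60 with PBS and 6.54 and 6.39 with ISOX DUAL (OIR difference 1.87 ± 0.13, limma adjusted p = 0.00526). It was also the 1 gene of these 8 lists to pass for ISOX DUAL against uninjected OIR (-1.68 ± 0.13, adjusted p = 0.0339), a call lost on leaving out any 1 of the 10 arrays (values -1.75 to -1.60). PBS against uninjected OIR gave -1.41 ± 0.13 for Angpt2 (limma adjusted p = 0.0880). Both injected groups together gave -1.54 ± 0.11 (limma adjusted p = 0.0218). That call was also lost on leaving out any 1 of the 10 arrays (values -1.62 to -1.47). It was lost as well with only the groups compared in the fit. The endothelial transcription factor genes Ets1 (0.77 ± 0.13, adjusted p = 0.0577), Fli1 (0.67 ± 0.13) and Erg (0.38 ± 0.09) had positive values in OIR that did not pass.

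The 7 calls among these lists in OIR rest on few arrays. All 7 were lost when either untreated day 17 array was left out, 6 without the first uninjected OIR array (Angpt2 was kept) and 4 without the second. Leaving out either ISOX DUAL array lost 5, either PBS array 4 and either day 7 array 3, through the shared spread. All 7 were also lost with only the groups compared in the fit, and with array weights Angpt2 alone was kept. Tnfrsf1a was lost without the filter and with median centring, and Mcam with the replicate block. Only called genes and up to 4 tested genes of smallest p in each list were followed through the settings. Of the genes followed, Cd34, Cd93, Eng, Rgs5 and Slco1a4 passed in OIR in addition with that block. The differences of the 7 calls and of these added genes kept their direction in each of these fits. Cdh5 was not among the genes followed. Of the 24 calls of these lists between the days, 10 held in all 10 leave-one-out fits: Abcc9, Angpt1, Cav1, Flt1, Lyve1, Ocln, Ptprb, Slco1a4, St3gal3 and Tnfaip3. Of the leave-one-out fits, those without the second day 7 array and without the first untreated day 17 array lost the most of these calls. Array weights lost 14 of the 24 and a fit of only the groups compared 16. Between the days 10.6% of all genes tested passed, which is the share to set beside these 24 calls and the rises and falls named above.

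For the remaining adhesion genes the 3 most like tested genes were named by the same measure, Pearson correlation over 10 arrays, with no p. They were Kank3 (0.954), Slc29a1 (0.953) and Tcirg1 (0.936) for Icam1, and Tifa (0.923), Snhg18 (0.921) and Flt3l (0.920) for Icam2. For Vcam1 they were Pde6d (0.975), Tmem237 (0.974) and Zfp119b (0.966). Beside Mrc1, those for Sele were Tmem204 (0.940) and Bag3 (0.939), and those for Selp were Clps (0.945), Bglap2 (0.941) and Lcn10 (0.938). Icam2, Sele and Selp were below the negative control median on 10 of 10 arrays, so these values include readings under background. Of the genes named for them, Flt3l and Bglap2 were above that median on 10 arrays. Tifa was above it on 9, Bag3 on 8, Snhg18 on 6, Tmem204 on 4, and Clps and Lcn10 on 0. Among the adhesion genes themselves the correlations ran from -0.283 (Vcam1 and Selp) to 0.659 (Sele and Pecam1).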

How the data were processed

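Values are those of the authors' deposited table, with 1 log2 level for each transcript cluster on each array. That they are log2 follows from their range, 0.78 to 13.67. Per the labels' protocols, Trizol was used to extract total RNA, and the WT Terminal Labeling Kit to fragment and biotinylate it. How the authors corrected background and normalized, and with what software, is not given in the sources used here. No further normalization was applied.

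Of 72688 rows, 6732 were controls. Of 65956 transcript clusters, 30604 had 1 symbol and 2146 several. Symbols were updated through RefSeq genes of GRCm38.p6. A gene was its single-symbol cluster of highest mean, and was tested if 2 or more arrays exceeded that array's 30th percentile (23255 genes). limma 3.58.1 in R 4.3.3 (lmFit, eBayes) was fitted over all 10 arrays, with 5 residual and 2.76 prior degrees of freedom, and was tested on simulated data. The median half-width of a 95% interval was 0.311 log2.

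The adhesion genes and gene lists were chosen with earlier results of these data known. Besides the adhesion genes, the text names from each list up to 4 tested genes of smallest p in OIR and genes past the threshold, 3 genes most like each adhesion gene, and Kdr, Cdh5 and Cldn5. Itgal, Itgax, Itgam, Itgad, Itgb2, Tnf, Il1a, Il1b, Il6 and Ifng were named after their values were seen. Array differences correlated across genes at 0.583, 0.809 and 0.587 among the uninjected groups and 0.399 between the injected groups, but at -0.0567 to -0.406 for an uninjected group set against one that was injected. The labels give no source for a pairing, and the numbers do not pair all groups, so the fit without a replicate block was kept. Changes of call with the block are given for the adhesion genes and for the list genes followed through the settings. Those list genes were the called ones and, in OIR, up to 4 of smallest p in each list.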

Additional observations from a re-analysis of the deposited data

How the results depend on the processing

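The differences of the adhesion genes, of the list genes followed and of Gfap and Sox9, and the numbers of genes called, were recomputed. The settings were no filter, a stricter filter, quantile normalization, median centring, trended and robust eBayes, array weights and a replicate block. Further settings were the mean of all clusters of a gene, only the groups compared, and leaving out each array. List medians, list means, counts of positive genes and correlations were not recomputed. The stricter filter left out Icam2. Sele and Selp were read from fits without the filter throughout, so the filter settings give no further value for them. The count of tested adhesion genes past the limma threshold in OIR, 0, was 1 with the replicate number as a block (replicate block: Pecam1 0.54 log2, adjusted p = 0.0491, over all alternatives 0.0491 to 0.9998); same-numbered arrays deviated together among the uninjected groups but not across all groups. The count between the days, 1, was 0 with quantile normalization (Pecam1 0.61 log2, adjusted p = 0.0563), median centring (0.57, 0.0634), array weights (0.172) and only the groups compared (0.197), and 0 to 1 without single arrays; the replicate block kept it (adjusted p = 0.00470). The number of genes called in OIR, 115, was 0 without the second and 3 without the first untreated day 17 array, 6 and 35 without the first and second uninjected OIR array, 23 on leaving out 1 ISOX DUAL array, 54 on leaving out 1 PBS array, 12 with array weights and 0 with only the groups compared. Between the days the 2454 calls were 345 with only the groups compared, 1111 with array weights and 1500 without the second day 7 array. The causes were not tested. Differences near 0 changed sign under scaling: Icam1 between the days was -0.0114 with quantile normalization and -0.0107 with median centring, and -0.0141 with median centring for both injected groups against uninjected OIR. Selp was -0.0029 (quantile) and -0.0087 (median centring) for ISOX DUAL against uninjected OIR and 0.0461 and 0.0276 for the 3 OIR groups against untreated retina. For ISOX DUAL against PBS, Vcam1 was 0.0052 with median centring and Sele 0.0086 with quantile normalization. Leaving out 1 array at a time also turned signs. In uninjected OIR against untreated retina Icam1 ranged from -0.0191 to 0.1198, Icam2 from -0.1233 to 0.0138, Vcam1 from -0.4369 to 0.0907 and Selp from -0.0151 to 0.0399. For PBS against uninjected OIR the ranges were -0.0744 to 0.0555 (Icam1), -0.0828 to 0.0490 (Icam2) and -0.1662 to 0.3615 (Vcam1), and for ISOX DUAL against uninjected OIR -0.1723 to 0.3554 (Vcam1) and -0.0241 to 0.0309 (Selp). For ISOX DUAL against PBS they were -0.0387 to 0.0912 (Icam1), -0.1597 to 0.1475 (Vcam1), -0.0707 to 0.0326 (Sele) and -0.2044 to 0.0058 (Pecam1). Between the days they were -0.0561 to 0.1266 (Icam1) and -0.0610 to 0.0591 (Selp). For the 3 OIR groups they were -0.0166 to 0.1222 (Icam1) and -0.0192 to 0.0065 (Selp), and for both injected groups against uninjected OIR -0.0288 to 0.0361 (Icam1), -0.1098 to 0.0219 (Icam2) and -0.1692 to 0.3584 (Vcam1). Pecam1 kept a positive difference in OIR and between the days in every alternative. Signal near the negative controls and 2 arrays a group limit what could be seen.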
